A study of Mus musculus with 2 samples.

Results

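Binding of the forkhead transcription factor Foxf2 was examined around 10 mouse genes of the hyaluronan and versican matrix, the gel between the mesenchymal cells of the palatal shelf. The genes were Has2, Vcan, Hapln1, Cd44 and the protease genes Adamts1, Adamts4, Adamts5, Adamts9, Adamts15 and Adamts20, chosen by name from 22372 protein-coding genes of GENCODE vM1 on the mouse build mm9. A peak was counted for a gene if its centre lay inside the gene, or if the gene had the nearest coding transcription start site (TSS) and that lay within 100 kb. This gave 12 of the 9165 peaks, at 8 of the 10 genes.

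The data were 1 anti-FLAG chromatin immunoprecipitation sequencing (ChIP-seq) library and 1 input library, which is sonicated chromatin sequenced with no antibody step. Per the labels, both came from palatal shelves of Foxf2 FLAG/FLAG embryos at E13.5, with 50 pairs of shelves collected. The 3xFLAG tag was placed on the endogenous Foxf2 protein by CRISPR/Cas9 editing, and the input embryos carried it too. Whole shelves were used, so peaks are not assigned to a cell type, and a ChIP from untagged shelves was not analysed here. The ChIP library held 26849463 tags (aligned reads), and the peak values put the input library at about 19230000. Neither had a replicate, so no difference between peaks has a replicate check. Expression was not measured.

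Hyaluronan is a very long sugar polymer, extruded through the cell membrane by hyaluronan synthases, that binds much water and swells the space between cells. Versican is a large chondroitin sulphate proteoglycan that binds hyaluronan, and link protein locks the pair together. Secreted ADAMTS proteases cut versican and so remodel the gel. In mice this matrix fills the palatal mesenchyme while the shelves lift above the tongue.

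The hyaluronan and versican genes lay near Foxf2-FLAG peaks in 8 of 10 cases, and 23.9% of all protein-coding genes had a peak by the same rule (5347 of 22372). Adamts9 had 3 peaks, Cd44 and Adamts1 had 2 each, and Has2, Vcan, Hapln1, Adamts5 and Adamts20 had 1 each. Adamts4 and Adamts15 had none. At least 2 peaks were found at 3 of the 10 genes and at 6.79% of all genes, and at least 3 peaks at 1 of the 10 (Adamts9) and at 2.48% of all. A peak inside the gene was found at 4 of the 10 (Vcan, Cd44, Adamts9 and Adamts20) and at 16.1% of all genes. The 10 genes also had more sequence in which a peak could fall, a median of 173.8 kb each against 52.0 kb over all genes. Of genes with at least 100 kb of such sequence, 8 of 9 matrix genes had a peak, beside 45.5% of all such genes (3014 of 6621). Spread over that sequence, the matrix genes had 7.15 peaks per Mb and all genes 4.13 per Mb. No test was applied to these counts, because the genes were picked as a list, with earlier results of these data known. The differences from all genes therefore only describe this list.

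**Figure D1:**
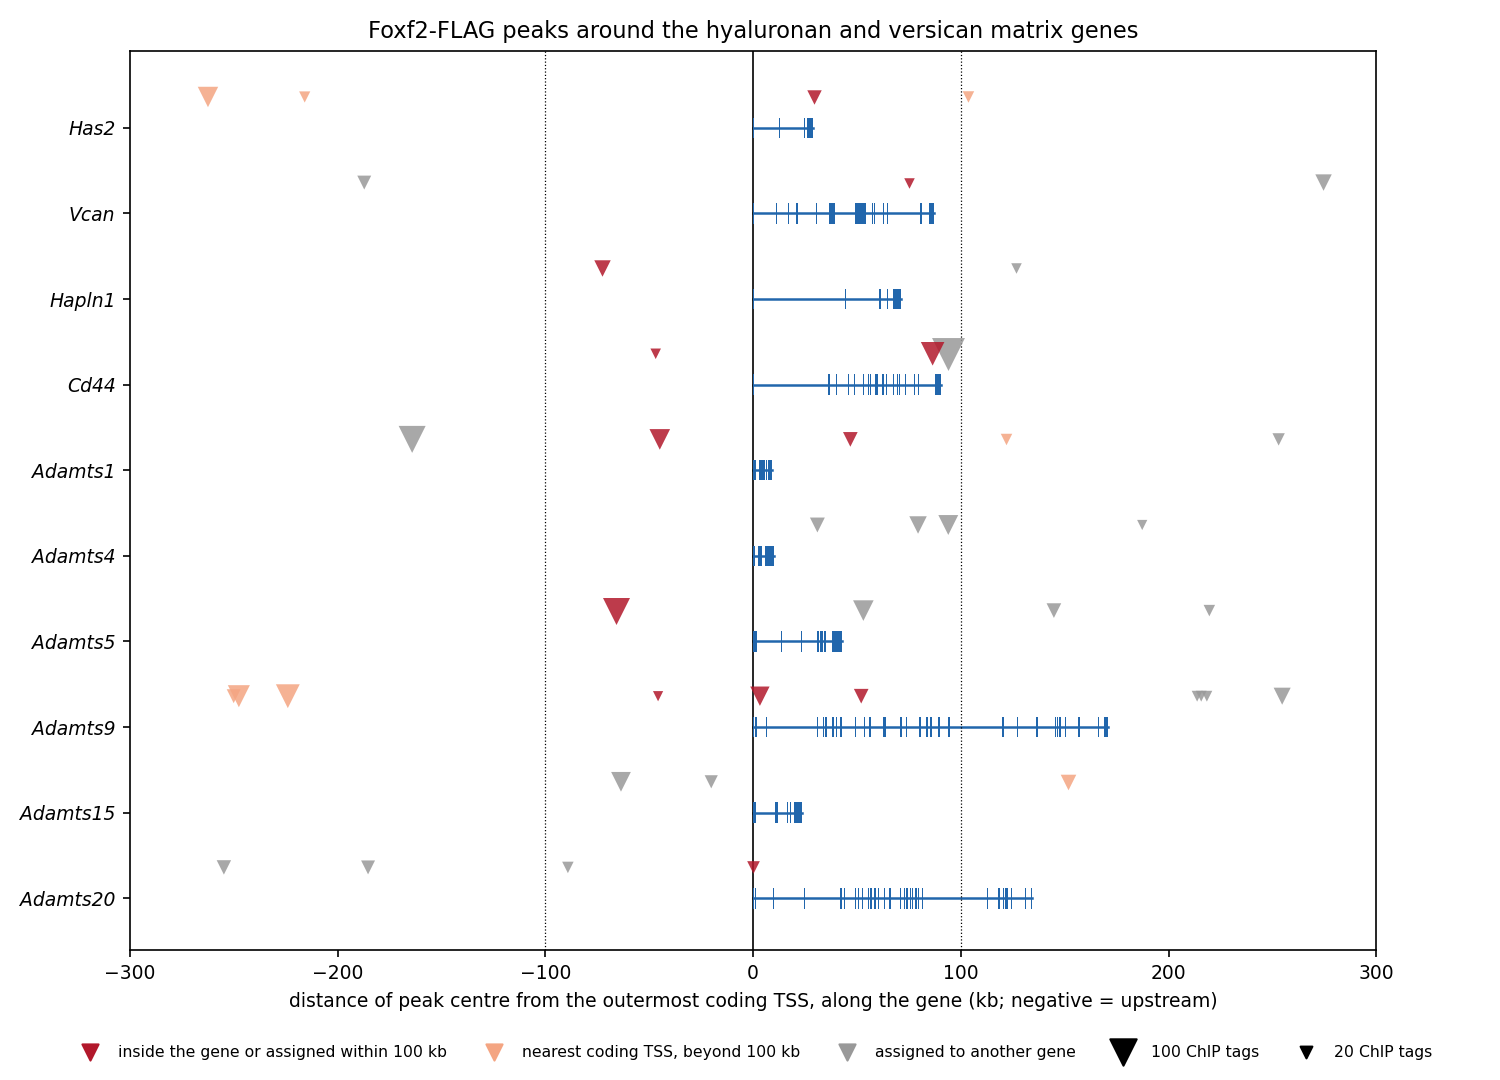
Peaks within 300 kb of the outermost coding TSS of each of the 10 genes. The x axis is the distance of a peak's centre from that TSS along the gene in kb, blue bars are exons of the transcript with the longest coding sequence, and the area of a triangle is proportional to the ChIP tags of the peak. The 12 peaks counted for the genes are dark red, peaks beyond 100 kb with the gene's TSS as nearest are light orange, and peaks that belong to another gene are grey; dotted lines mark 100 kb. The peak at the Adamts20 TSS is the only 1 of the 12 within 1 kb of a coding start.

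Most of these peaks lay away from coding promoters. The centre was within 1 kb of a coding TSS in 1 of the 12, 1 to 10 kb away in 2, and 10 to 100 kb away in 9. Over all 9165 peaks the shares were 25.7%, 13.2% and 36.7%, and the other 24.4% lay beyond 100 kb, where the rule counts a peak only inside a gene. Of the peaks within 100 kb of a TSS, 34.0% were within 1 kb. A peak within 1 kb of its coding start was found at 1 of the 10 genes, Adamts20, and at 10.3% of all genes, or 9.31% if only the outermost start of each gene counts. The median distance to the nearest coding TSS was 45.1 kb for the 12 peaks and 24.1 kb for all peaks. Inside the gene lay 5 of the 12 (4 in introns and 1 in a first exon), 5 lay upstream and 2 downstream.

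Has2 encodes the main hyaluronan synthase of embryonic mesenchyme. The gene lies at chr15:56497182-56526094 on the minus strand, in a wide stretch with no other coding start: the nearest are Slc22a22 at 570.6 kb and Sntb1 at 787.6 kb. Its peak, chr15:56496572-56497072, held 30 ChIP tags and 2 input tags, a 10.74-fold excess after scaling for depth (exact 95% interval 2.73 to 92.8). The interval is conditional on the tags of the peak and covers counting error only. The peak's centre lay 360 bp past the 3′ end of the gene and 29.3 kb from its TSS. The peak caller's score was 32, above 67.6% of the list with ties shared (all peaks range from 17 to 271, median 25). The 200 bp around the centre were 30.0% GC and held 1 forkhead site, shown in capitals in the context chr15:56496839-56496885, plus strand.
Has2 peak, 40 bp right of the centre: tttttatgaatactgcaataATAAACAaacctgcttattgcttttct
Among transcripts of every gene type, the nearest start was that of Has2as, an antisense transcript of Has2, 24.7 kb away.

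Another 3 peaks had Has2 as the nearest coding gene but lay farther than 100 kb. The first of these, just outside the limit at 103.7 kb (chr15:56422190-56422690), held 19 ChIP tags and 1 input tag, with a score of 22. A second lay 215.9 kb upstream with 18 ChIP tags and 1 input tag. The third and strongest lay 262.5 kb upstream at chr15:56788340-56788840, with 60 ChIP tags, 2 input tags and a score of 55 (21.5-fold, 5.70 to 182). The weaker pair each held a forkhead site in the central 200 bp, and in the strongest the only site lay 113 bp from the centre. The farthest peak counted by distance was that of Hapln1, at 72.7 kb.

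Vcan encodes versican itself. It lies at chr13:89794915-89882117 on the minus strand, next to Hapln1, with TSSs 137.5 kb apart. Its single peak, chr13:89806655-89807155, was among the weakest of the list, with 16 ChIP tags and 1 input tag (11.46-fold, 1.78 to 481) and a score of 17, the lowest value in the list. It lay in intron 12 of the transcript with the longest coding sequence, which has 15 exons. The distance was 10.8 kb from an internal annotated coding start and 75.2 kb from the outermost one. The strict forkhead site GTAAACA stood 87 bp left of the centre, near the edge of the 200 bp searched, in the context chr13:89806795-89806841, plus strand.
Vcan peak: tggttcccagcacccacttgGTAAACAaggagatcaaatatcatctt
The nearest other peak was 199.4 kb away, that of Hapln1. Of the 5 genes with a single peak, Vcan had the lowest score.

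Hapln1 encodes link protein, which ties versican to hyaluronan. The gene lies at chr13:89680241-89751437 on the plus strand. Its peak, chr13:89607172-89607815, lay 72.7 kb upstream of the TSS and was 643 bp wide, with 39 ChIP tags and 2 input tags (13.97-fold, 3.62 to 119) and a score of 32. The centre was AT-rich, 29.0% GC, at the 1.96 percentile of all peaks. The region held 4 forkhead sites, the most of the 12 peaks, of which 2 fell in the central 200 bp. That window, chr13:89607393-89607592 on the plus strand, is shown with those sites in capitals; the first is GTAAACA read on the minus strand.
Hapln1 peak centre: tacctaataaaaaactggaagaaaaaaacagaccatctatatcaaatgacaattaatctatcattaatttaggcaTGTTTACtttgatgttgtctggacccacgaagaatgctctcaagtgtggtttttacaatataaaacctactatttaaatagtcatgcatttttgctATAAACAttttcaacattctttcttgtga
Between the sites the window also held the RUNX sequence TGTGGTTT at chr13:89607512-89607519. RUNX was searched as TGTGGTT followed by A or T on both strands. No other of the 12 windows held it, and 3.25% of all windows did.

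Cd44 encodes a cell-surface receptor for hyaluronan. The gene lies at chr2:102651298-102741822 on the minus strand. Inside it, in intron 18 of a transcript with 19 exons, the peak chr2:102655170-102655670 held 80 ChIP tags and 5 input tags (11.46-fold, 4.71 to 36.3), with a score of 34. Its nearest coding start was that of Slc1a2, a glutamate transporter gene, at 54.1 kb. An upstream peak at 46.9 kb, chr2:102788504-102789004, was weak, with 16 ChIP tags, 1 input tag and a score of 18. Neither region held a forkhead site, within or outside the central 200 bp.

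A much stronger peak lay 3.22 kb past the 3′ end of Cd44. At chr2:102647766-102648391 it held 156 ChIP tags and 6 input tags (18.6-fold, 8.37 to 51.5), and its score of 153 ranked 24 in the list. It was 93.7 kb from the Cd44 TSS and 46.7 kb from the nearest coding start of Slc1a2, so it was assigned to Slc1a2 and is not counted for Cd44. That depends on which starts are used. With only the outermost start of each gene, this peak was counted for Cd44, which then had 3 peaks in place of 2. The stronger peak lay 7.34 kb from the intron 18 peak, the closest neighbour that any of the 12 peaks had. Unlike the counted Cd44 peaks, it held 1 forkhead site in its central 200 bp, which was not the strict GTAAACA.

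The protease genes held 7 of the 12 peaks, at 4 of 6 genes, beside 23.9% of all genes with a peak. All of these proteases are secreted, and versican is a known substrate of each. Has2, Vcan, Hapln1 and Cd44 together held the other 5. A forkhead site was in the centre of 3 of the 7 protease peaks and 3 of the 5 others. The share was 40.8% over all peaks and 51.5% over peaks more than 1 kb from a TSS. Protease peaks and the others were not compared by a test.

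Adamts1 and Adamts5 encode proteases that cut versican and the related cartilage proteoglycan aggrecan, and they lie side by side, with TSSs 98.0 kb apart. Adamts1 (chr16:85794072-85803358, minus strand) had 2 peaks, almost evenly placed about the gene. The upstream one, chr16:85848066-85848566, held 61 ChIP tags and 4 input tags (10.92-fold, 4.05 to 41.4), with a score of 63, above 92.1% of the list. It was 45.0 kb from the Adamts1 TSS, 53.1 kb from the Adamts5 TSS and 10.1 kb past the 3′ end of Adamts5, and was assigned to Adamts1 as the nearer start. The downstream one, chr16:85756256-85756888, held 31 ChIP tags and 2 input tags, with a score of 22. The contexts of their forkhead sites are chr16:85848358-85848404 (plus strand) for the upstream peak, and chr16:85756551-85756597 (plus) and 85756609-85756655 (minus) for the downstream one.
Adamts1 upstream peak: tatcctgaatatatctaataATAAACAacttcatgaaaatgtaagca
Adamts1 downstream peak, first site: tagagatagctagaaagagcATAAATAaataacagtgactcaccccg
Adamts1 downstream peak, other strand: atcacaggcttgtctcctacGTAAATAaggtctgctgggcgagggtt
The first site of the downstream peak overlaps a further copy of the same letters, and its run of bases also contains the AP-1 sequence TGACTCA. Of the 12 windows 2 held an AP-1 sequence (TGAGTCA or TGACTCA), this one and that of the upstream Cd44 peak, and 2.36% of all windows did.

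Adamts5 (chr16:85858415-85901370, minus strand) had the strongest of the 12 peaks. The region chr16:85967163-85967935 lay 66.2 kb upstream of the TSS, was 772 bp wide, and held 105 ChIP tags and 4 input tags (18.8-fold, 7.13 to 70.3). Its score of 82 was above 96.3% of the list. It was also the only 1 of the 12 with a lower interval bound over 5-fold. No forkhead site lay in the central 200 bp, but 3 lay elsewhere in the region and are shown here. Over all peaks, 64.3% held a site somewhere in the region. The Cd44 regions held none, but each was narrower, at 500 bp. The contexts of the 3 Adamts5 sites are chr16:85967206-85967252 (plus strand), chr16:85967405-85967451 (minus) and chr16:85967761-85967807 (minus).
Adamts5 peak, 320 bp left of the centre: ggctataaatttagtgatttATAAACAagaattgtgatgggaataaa
Adamts5 peak, 121 bp left: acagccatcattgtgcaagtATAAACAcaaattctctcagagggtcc
Adamts5 peak, 235 bp right: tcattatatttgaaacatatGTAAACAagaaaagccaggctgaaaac
Farther out on the same side, a weak peak with 16 ChIP tags and 1 input tag lay 409.0 kb upstream of Adamts5 with no other coding start nearer.

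Adamts9 encodes a versican-cleaving protease that, together with Adamts20, is needed for palate closure in mice. The gene (chr6:92722693-92893486, minus strand) had 3 peaks. The best, chr6:92889991-92890491, lay in intron 2, 3.25 kb inside the gene, with 54 ChIP tags and 3 input tags (12.9-fold, 4.18 to 64.5) and a score of 47. Among all gene types it lay nearest to the start of the long non-coding RNA 9530026P05Rik, 0.122 kb away. A second, chr6:92841218-92841718 in intron 12, had 31 ChIP tags and 2 input tags but a score of 17. The third, 45.8 kb upstream at chr6:92939019-92939519, had 15 ChIP tags and 1 input tag, the fewest of the 12. The intron 2 window, chr6:92890141-92890340 on the plus strand, held a strict site and a variant, both read on the minus strand. The variant lay 25 bp from the centre and the strict site 95 bp, near the edge of the 200 bp searched.
Adamts9 intron 2 peak centre: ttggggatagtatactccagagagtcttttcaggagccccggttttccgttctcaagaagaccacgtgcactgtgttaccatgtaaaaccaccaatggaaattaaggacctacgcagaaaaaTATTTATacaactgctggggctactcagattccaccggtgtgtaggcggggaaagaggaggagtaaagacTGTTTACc

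Upstream of Adamts9 a gap of 970.2 kb ran to the next coding start, that of Magi1, and it held 5 more peaks with Adamts9 as the nearest coding gene, 224.1 to 354.6 kb away. The strongest, chr6:93117289-93117789, had 82 ChIP tags and 5 input tags (11.75-fold, 4.83 to 37.1) with a score of 85, above that of every peak counted for the 10 genes. The next, chr6:93140804-93141431, had 70 ChIP tags and 4 input tags with a score of 68, and another peak lay 2.49 kb from it. The strict sites of these strong peaks are shown for comparison with the intron 2 peak, in the contexts chr6:93117541-93117587 (minus strand) and chr6:93141066-93141112 (plus).
Adamts9, 224.1 kb upstream: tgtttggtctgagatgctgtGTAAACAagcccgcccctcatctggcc
Adamts9, 247.6 kb upstream: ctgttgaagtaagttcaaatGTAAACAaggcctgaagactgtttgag
With no limit on distance, Adamts9 had 8 peaks in place of 3.

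Adamts20, mutated in the belted mouse, whose coat lacks pigment in a band round the trunk, lies at chr15:94100594-94295849 on the minus strand. Its peak, chr15:94234249-94234986, was the only 1 of the set at a coding promoter. The centre lay 72 bp inside the first exon of the coding transcript, in untranslated sequence. The peak held 23 ChIP tags and 1 input tag (16.5-fold, 2.68 to 679), with a score of 22. The window was 77.5% GC, the highest of the 12, and the region held no forkhead site. A peak of 19 ChIP tags and 1 input tag lay upstream at chr15:94323648-94324148. It was 89.2 kb from this start and 50.0 kb from that of Pus7l, so it was assigned to Pus7l. A non-coding Adamts20 transcript starts 28.0 kb from it, and counting such starts gave Adamts20 2 peaks.

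Adamts4 and Adamts15 encode the remaining proteases of the set and had no peak by the rule. Adamts4 (chr1:173180552-173190768, plus strand) lies among close neighbours and had only 12.5 kb of sequence in which a peak could be counted. The nearest peak was 30.9 kb away with 32 ChIP tags and 2 input tags, at the start of Ppox, a haem synthesis gene. Adamts15 (chr9:30706740-30730037, minus strand) lies beside another protease gene, Adamts8. The nearest peak was 20.2 kb upstream, 77 bp inside Adamts8, with 25 ChIP tags and 1 input tag. A peak of 35 ChIP tags and 2 input tags lay 151.7 kb downstream of the Adamts15 start, beyond the limit.

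**Figure D2:**
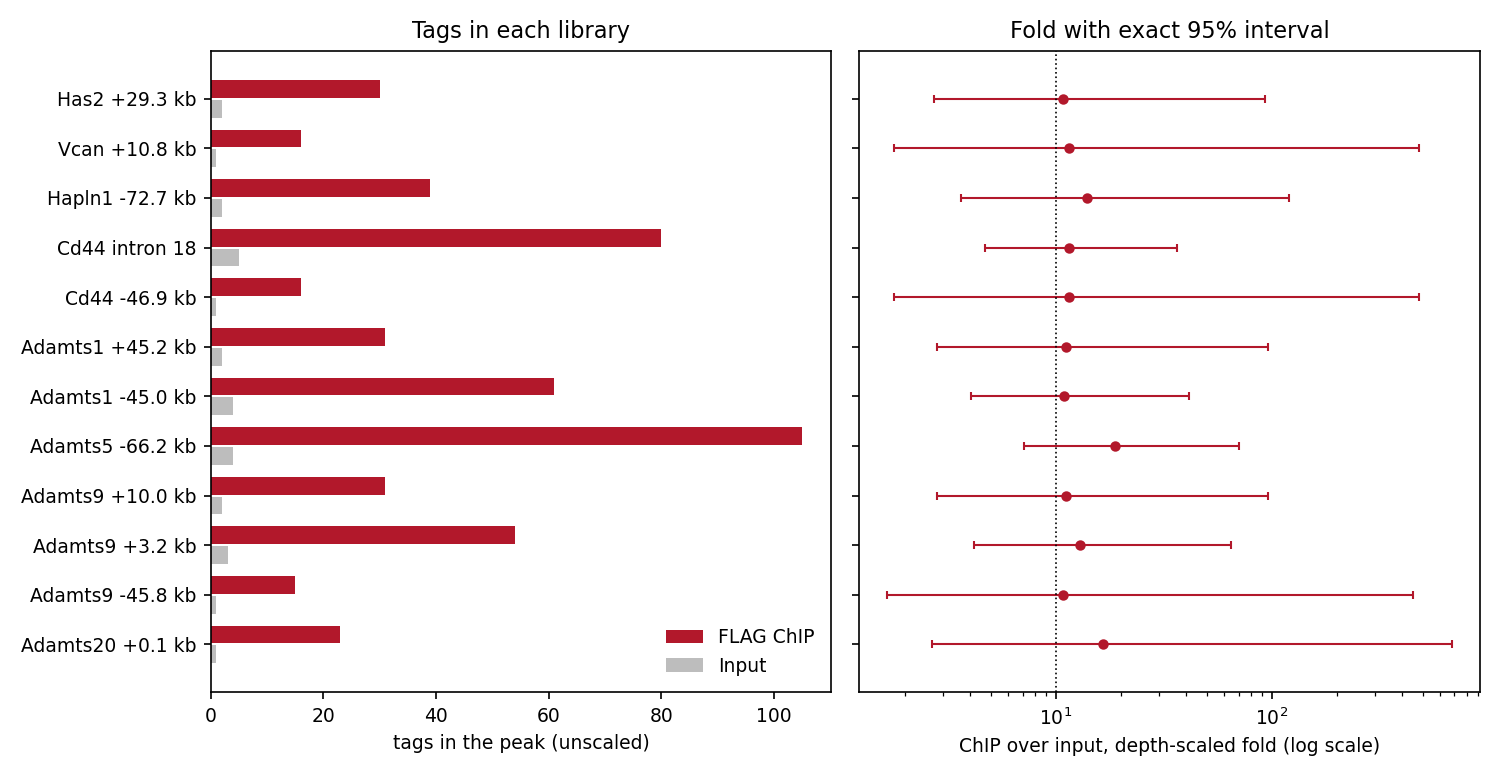
Tags and fold of the 12 peaks, named by gene and by distance from the nearest annotated coding start of the gene, or by intron where another gene's start is nearer. The left panel gives unscaled tags of the FLAG ChIP library (red) and the input library (grey), and the right panel the depth-scaled ChIP over input fold on a log scale with its exact 95% interval. ChIP tags run from 15 at Adamts9 to 105 at Adamts5, input tags from 1 to 5, and every interval but that of Adamts5 reaches below 5-fold; the dotted line is the 10-fold limit of the peak caller.

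The 12 peaks held 501 ChIP tags and 28 input tags in all. Their median was 31 ChIP tags (30 over all peaks), and their median score was 27 (25 over all peaks). Their median fold was 11.46 (12.89 over all peaks). At most 2 input tags were found in 8 of the 12 and in 71.1% of all peaks, and at most 20 ChIP tags in 3 of the 12 and in 29.0% of all. Scores above 90% of the list were found at 2 of the 12, the Adamts5 peak and the upstream Adamts1 peak. A width of 500 bp, the smallest that the peak caller gives, was found in 8 of the 12 and in 65.4% of all peaks. All peaks had passed the authors' 10-fold limit over input, so an excess over input is not a result about these genes. The median was 2 input tags, both for the 12 peaks and for all peaks. At the genome mean the input library would give about 4.81 tags per 500 bp. The folds thus reflect input counts mostly below that mean as well as the ChIP tags. With so few input tags most folds could not be ranked: for example, the intervals of Adamts5 (7.13 to 70.3) and Vcan (1.78 to 481) overlapped.

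**Figure D3:**
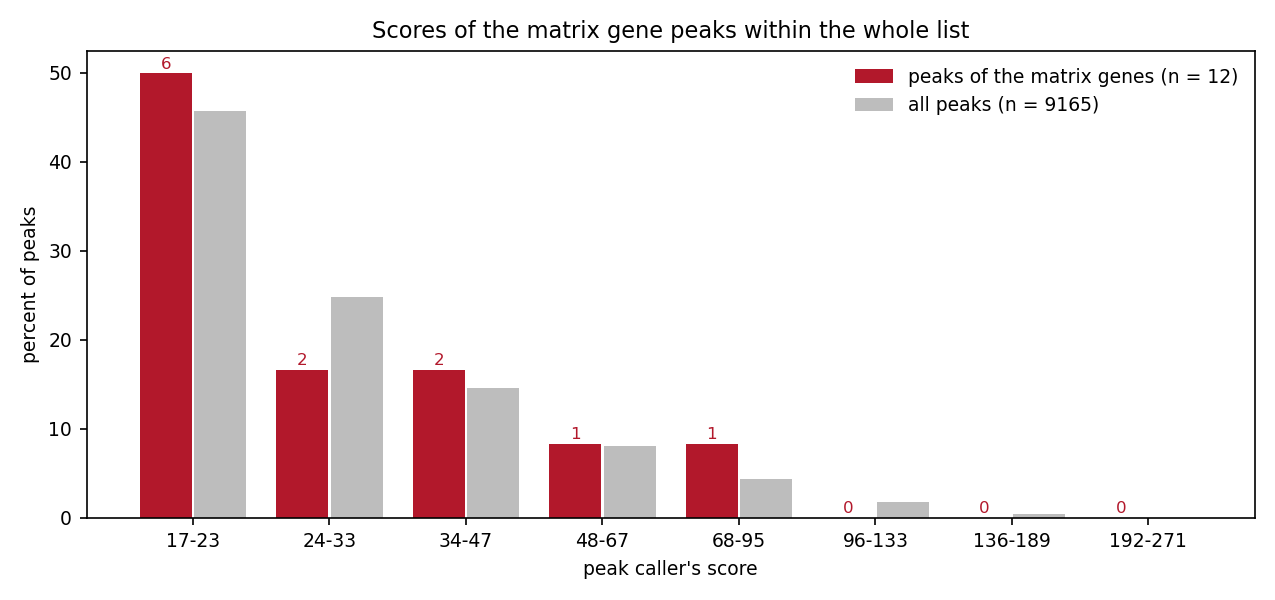
Scores of the 12 peaks (red) and of all 9165 peaks (grey) in 8 score classes, as percent of each set, with the number of the 12 above its bar. Of the 12, 6 fall in the lowest class of 17 to 23, which holds 45.8% of all peaks, and none lies above 95.

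Forkhead sites were looked for on both strands as GTAAACA or ATAAACA or GTAAATA or ATAAATA. In the central 200 bp, 6 of the 12 peaks held at least 1 of these, against 40.8% of all peaks and 51.5% of all peaks over 1 kb from a TSS. The 6 lay at Has2, Vcan, Hapln1, Adamts9 and, in 2 peaks, Adamts1. The central 100 bp held one in 4 of the 12 peaks and in 23.9% of all peaks. The strict GTAAACA was in 3 of the 12, at Vcan, Hapln1 and Adamts9, and in 15.3% of all peaks. It lay 22 bp from the centre at Hapln1, but 87 bp at Vcan and 95 bp at Adamts9, near the edge of the 200 bp. At least 2 sites were in 3 of the 12 and in 11.2% of all. In 1 window of the same width per peak, centred 2000 bp left of the peak's centre, a site was found for 4 of the 12 peaks and for 18.2% of all peaks. Over the whole deposited region the count was 8 of 12, with Adamts5 and the intron 12 peak of Adamts9 added, and 64.3% of all peaks. The peaks at Cd44 and Adamts20 and the upstream peak of Adamts9 held none anywhere in the region. A match is a description of the letters and does not show that the site is bound.

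**Figure D4:**
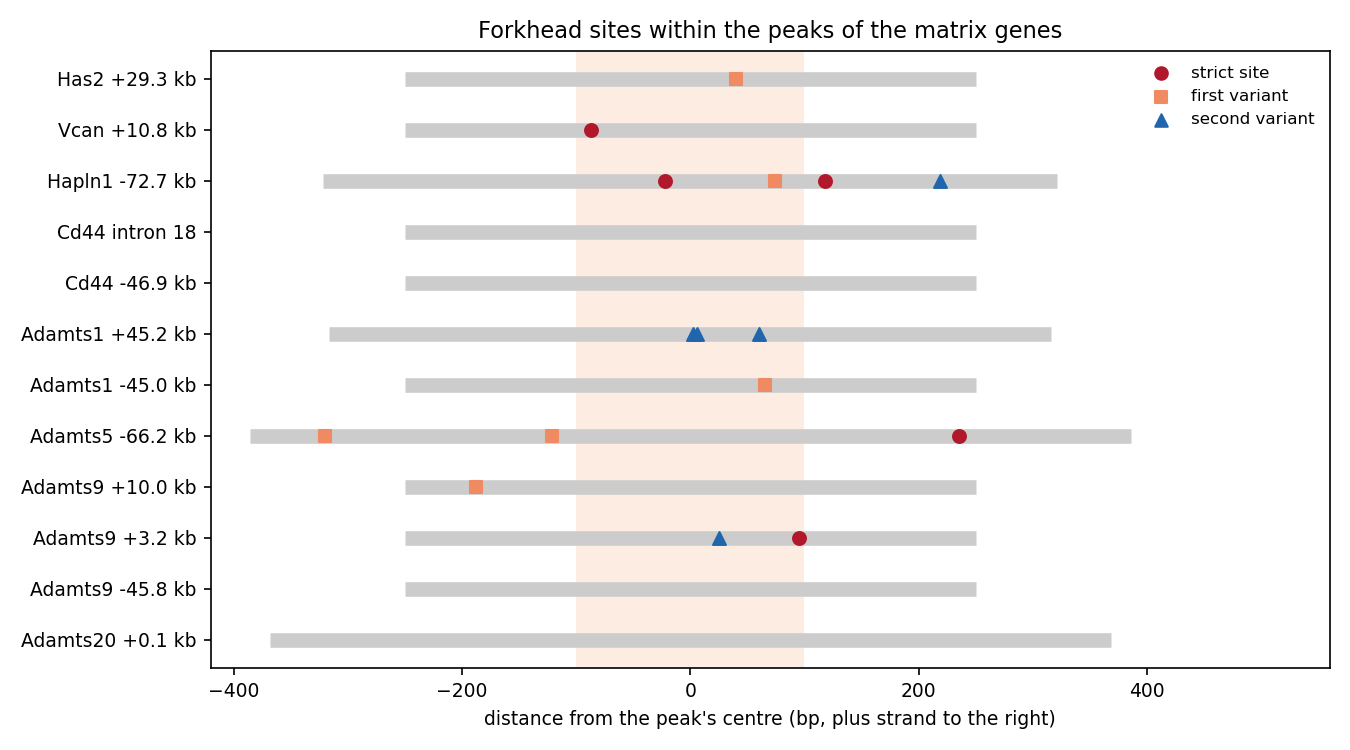
Positions of forkhead sites in the 12 peaks. The x axis is the distance from the centre in bp on the plus strand, grey bars are the deposited regions (500 to 772 bp wide) and the shaded band is the central 200 bp. Circles are the strict site, squares the variant that differs from it in its first base, and triangles the variants with T in place of C; 6 peaks have a site in the band, and the 3 sites of the Adamts5 peak lie outside it.

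Each of the 4 spellings occurred. The 10 sites in the 12 central windows were 3 GTAAACA, 3 ATAAACA, 3 ATAAATA and 1 GTAAATA. Over all 5202 sites in central windows the shares were 28.7%, 40.7%, 19.4% and 11.1% in the same order. The base after the site was A in 6 of the 10 and in 2080 of the 5202. Of other sequences, AACAAAG or AACAATG (SOX) was in 2 of the 12 windows, at Adamts5 and upstream of Cd44, and in 10.7% of all. The E-box CATCTG was in 1, at Cd44 intron 18, and in 16.1% of all. GGAATG (TEAD) and TAATTA (homeobox) were in none, and in 9.97% and 5.71% of all. The forkhead letters read backwards, which serve as a control of base composition and share the word ATAAATA with the forward set, were in 2 of the 12, both through that shared word, and in 18.8% of all. None of these SOX, RUNX, AP-1 or E-box matches shared a base with a forkhead site.

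Other genes of the same matrix system were then counted from a list of 59. All matched the annotation, some under another name, such as Cemip2 under its older name Tmem2. Of these, 22 had a peak (37.3%, beside 23.9% of all genes), with 36 peaks in all. Partners of versican and inhibitors of its proteases had a peak in 6 of 8 cases, enzymes of chondroitin sulphate synthesis in 4 of 8, and other ADAMTS and ADAMTS-like genes in 8 of 18. The genes of hyaluronan synthesis and breakdown beyond Has2 had one in 2 of 8, other hyaluronan receptors and binders in 2 of 14, and the lecticans related to versican (Acan, Bcan and Ncan) in 0 of 3. With groups this small the shares were not compared by a test. They were also not matched for the sequence in which a peak could fall. Among all genes with at least 100 kb of it, 45.5% had a peak. This list, too, was chosen with earlier results of these data known.

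**Figure D5:**
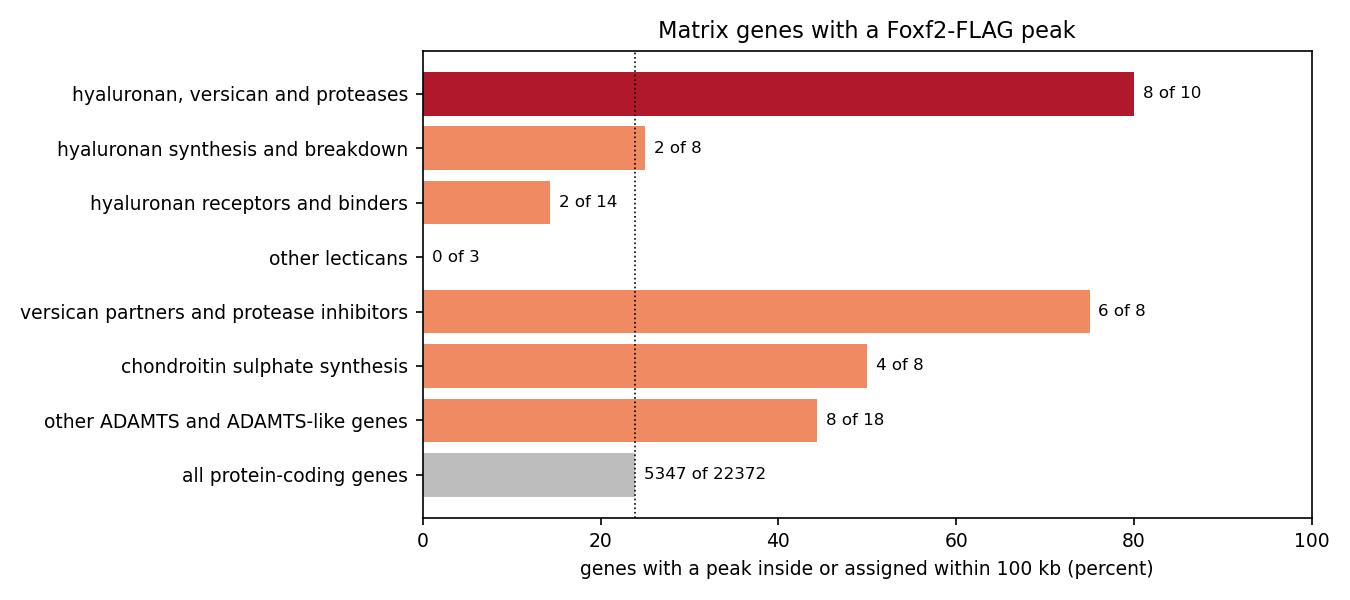
Percent of genes with a peak inside or assigned within 100 kb, for the 10 hyaluronan, versican and protease genes (dark red), for 6 groups of other matrix genes (orange) and for all protein-coding genes (grey, dotted line at 23.9%). The 10 genes stand at 8 of 10 and the groups between 0 of 3 and 6 of 8. Shares are not matched for the sequence in which a peak could fall.

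The highest-scoring peaks of each group were as follows. Among versican partners, Tnr, which encodes the lectican-binding glycoprotein tenascin-R, had a peak of 69 ChIP tags and 4 input tags in the gene (score 66). Fbn1, the fibrillin-1 gene, had one of 57 and 4 in the gene (score 57), although the start of Gm9913 was nearer. Of the other proteases, Adamts16 had an internal peak of 61 ChIP tags and 4 input tags (score 61) and Adamts17 one of 47 and 3 (score 47). Of the hyaluronan-degrading genes, Cemip2, whose product is a cell-surface hyaluronidase, had an internal peak of 53 and 3 (score 52), and Hyal2, another hyaluronidase gene, one of 22 and 1 (score 21) that was 0.725 kb from its TSS. The xylosyltransferase genes Xylt1 (29 ChIP tags and 2 input tags, score 28) and Xylt2 (27 and 0, score 27) start the sugar chains of proteoglycans. Ptx3 (28 and 0, score 20) and Itih1 (17 and 1, score 17), which encode proteins that build hyaluronan coats, had the lowest scores of those named. None of these reached the score of the Adamts5 peak, 82.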

How the data were processed

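The members, gene lists and motifs were chosen with earlier results of these data known. Per the submitters' processing notes, reads were aligned to mm9 with Bowtie 1.0.0 and SAMtools 0.1.19, and HOMER was named. Per the file headers, the authors called peaks with HOMER findPeaks in its histone style, which stitches 500 bp peaks into wider regions, on 1 ChIP library against 1 input library. Tags at the same position counted as 1, fragments were set to 112 bp, and peaks had to exceed both the input and the surrounding 10000 bp by 10-fold, with a p-value of at most 0.0001 over input. Per the file headers, the deposited signal columns were ChIP tags per 10000000, ChIP tags at the depth of the input, and input tags, with 0.5 standing for no tag. Scaled back by the header's total, ChIP values lay within 0.134 of whole tags (tolerance 0.15) and summed to 397999, the header's tags in peaks. The deposited ratio is the fold between libraries, and the deposited score is the peak caller's own. They describe and rank peaks within this list. The deposited p-value column was not printed.

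Coordinates are 1-based on mm9; no peak end exceeded a chromosome of the NCBIM37 reference, the assembly of mm9. Starts were those of coding transcripts of GENCODE vM1 protein-coding genes. Named were all 10 genes, the 2 top-scoring genes of each wider list group, and genes with a nearer TSS. Other neighbouring genes and non-coding transcripts were named after their values were seen. Motifs were searched in the 200 bp around each centre. Fold intervals were exact 95% binomial intervals from the unscaled tags and the depth ratio, and cover counting error only. Sequences were read from NCBIM37. Nearest-start, motif and interval steps were tested on simulated data. Python 3.11.15, pandas 2.3.3 and scipy 1.17.1 were used. No test was made across genes, since there was 1 library of each kind.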

Additional observations from a re-analysis of the deposited data

How the results depend on the processing

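With a limit of 10 kb for the nearest start, and peaks inside a gene still counted, 4 of the 10 genes had a peak, with 5 peaks. The share of all genes was 19.3%. With peaks inside the gene only, these were the same 4 genes and 5 peaks, and the share was 16.1%. Not all of the 5 lay within 10 kb of a coding start: the Vcan peak and the intron 18 peak of Cd44 did not. With no limit there were 24 peaks, and 25.9% of all genes had one. The highest 50% of peaks by score left 6 peaks, 13.6% of all genes and 11 genes of the wider list. The highest 10% left 2 genes with 2 peaks, 2.88% of all genes and 2 of the wider list. At least 15-fold over input left 2 genes with 2 peaks, 10.3% of all genes and 8 of the wider list. Only peaks with a forkhead site left 5 genes with 6 peaks, 10.3% of all genes and 13 of the wider list. The strict site alone was in 3 of the 12 peaks. Of 65 alternatives to these counts, shares and the median score, the other 44 stayed within 1.5 times the value reported. For single genes 101 values stayed and 49 moved. Counting starts of all gene types took the peaks of Has2 and Hapln1 from them and left 6 genes with 11 peaks, and 21.9% of all genes with one. With only the outermost start of each gene, 8 genes had 13 peaks, and 24.5% of all genes had one. The added peak was the strong one past the 3′ end of Cd44, with a score of 153. Starts of non-coding transcripts of coding genes, an alternative chosen after seeing the data, gave 13 peaks. No paired analysis was possible because there was 1 ChIP library and 1 input library. Input tags of 1 to 5 per peak limit every fold.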
